A study of Macaca mulatta with 8 samples.

Results

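SLC25A genes encode the carriers of the inner mitochondrial membrane, and this series measured them in CD4 T cells of rhesus macaques after an adoptive transfer of regulatory T cells (Tregs). Members were the genes whose deposited symbol starts with SLC25A. They numbered 42 of 16429 genes, each with 1 identifier. A reference table of gene identifiers gave the same name for 30 of them and no name for 8. For the other 4 it named another gene, so their identity is less certain. It called the identifier of SLC25A5 SLC25A43 (a further carrier), that of SLC25A33 TMEM201, that of SLC25A44 BGLAP and that of SLC25A51 SLC25A52. The deposited symbols are used here.

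Blood mononuclear cells of day 3 and day 20 were frozen, later thawed on 1 day and enriched for CD4+ cells. Sorting then gave 4 populations per day for droplet-based single-cell RNA sequencing. CFSE+ cells carried a dye that is diluted at each cell division, and since the title speaks of adoptively transferred Tregs they are read here as those cells. CD25hiCD127lo cells had the surface phenotype of the animal's own Tregs, but by the authors' classes most of them were Tconv (conventional T cells). On day 3, 2037 of the 3347 cells of this sort were classed as Tconv and 1301 as endoTreg. On day 20 these were 1356 and 938 of 2343 cells. Ratios to the whole CD25hiCD127lo sort are therefore not ratios to endoTreg cells alone. CD127posCD25pos and CD127posCD25neg cells were sorted as CD127-positive CD4 cells with and without CD25, the IL-2 receptor chain. Each population gave 1 library per day, so there were 8 libraries with no replicate of a population on a day, and no test between groups was run. The labels give no animal, strain, age, genotype or treatment behind a library, nor how the transferred cells were made. It is therefore not known which libraries share an animal.

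Carriers of this family move metabolites, nucleotides, phosphate and cofactors across a membrane that is otherwise closed to them. The ADP/ATP carriers send newly made ATP to the cytosol in exchange for ADP, and the phosphate carrier brings in the phosphate that ATP synthase needs. T cells that become activated build up mitochondria and their metabolite traffic, and Tregs are known to draw much of their energy from oxidative phosphorylation.

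The libraries held 1149 to 4751 cells and 2992787 to 12149559 UMIs, each UMI being 1 counted RNA molecule. Levels are CPM, the UMIs of a gene divided by all UMIs and scaled to 1e6, summed over all cells of a library, and the ranges in brackets are 95% Poisson intervals, which cover counting error only. FOXP3, which defines Tregs, and the other Treg markers summed to 1208 CPM in CFSE+ cells of day 3. FOXP3 itself was at 259 CPM there and IL2RA, the gene of CD25, at 634 CPM. The markers summed to 532 and 423 CPM in CD25hiCD127lo cells of day 3 and day 20. In CD127posCD25neg cells, which were sorted as lacking CD25, they summed to at most 43.9 CPM. CTLA4 was lower in CFSE+ than CD25hiCD127lo cells of day 3, at 37.5 against 49.4 CPM. T cell markers summed to 1636 to 2914 CPM. The 5 red cell markers found summed to 308 to 1561 CPM on day 3 and 127 to 148 CPM on day 20, when ALAS2 and AHSP were at 0 in all libraries. B cell markers stood at 264 CPM in CFSE+ cells of day 3 and at 26.0 to 150.0 CPM in the others. Of 25012 distinct cell barcodes, 382 occurred in more than 1 library.

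Of the 42 carriers, 12 reached 20 CPM in at least 1 library. Another 23 peaked between 1 and 20 CPM, and 7 stayed under 1 CPM in every library. The summed level of the family was 3224 CPM in CFSE+, 2653 in CD25hiCD127lo, 2385 in CD127posCD25pos and 2144 in CD127posCD25neg cells of day 3. On day 20 it was 2519, 2379.7, 2554 and 2221 CPM in the same order. Of the 12 carriers at 20 CPM, 10 had their highest level in CFSE+ cells of day 3, but so did 62.6% of all 4418 genes at that level. SLC25A3 was highest in CD25hiCD127lo cells of day 3 and SLC25A10 in CD25hiCD127lo cells of day 20. A high level in CFSE+ cells of day 3 is therefore not by itself particular to the carriers. The counts past 2-fold and most log2 ratios below are given beside values of all genes, while levels in CPM alone are not.

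**Figure D1:**
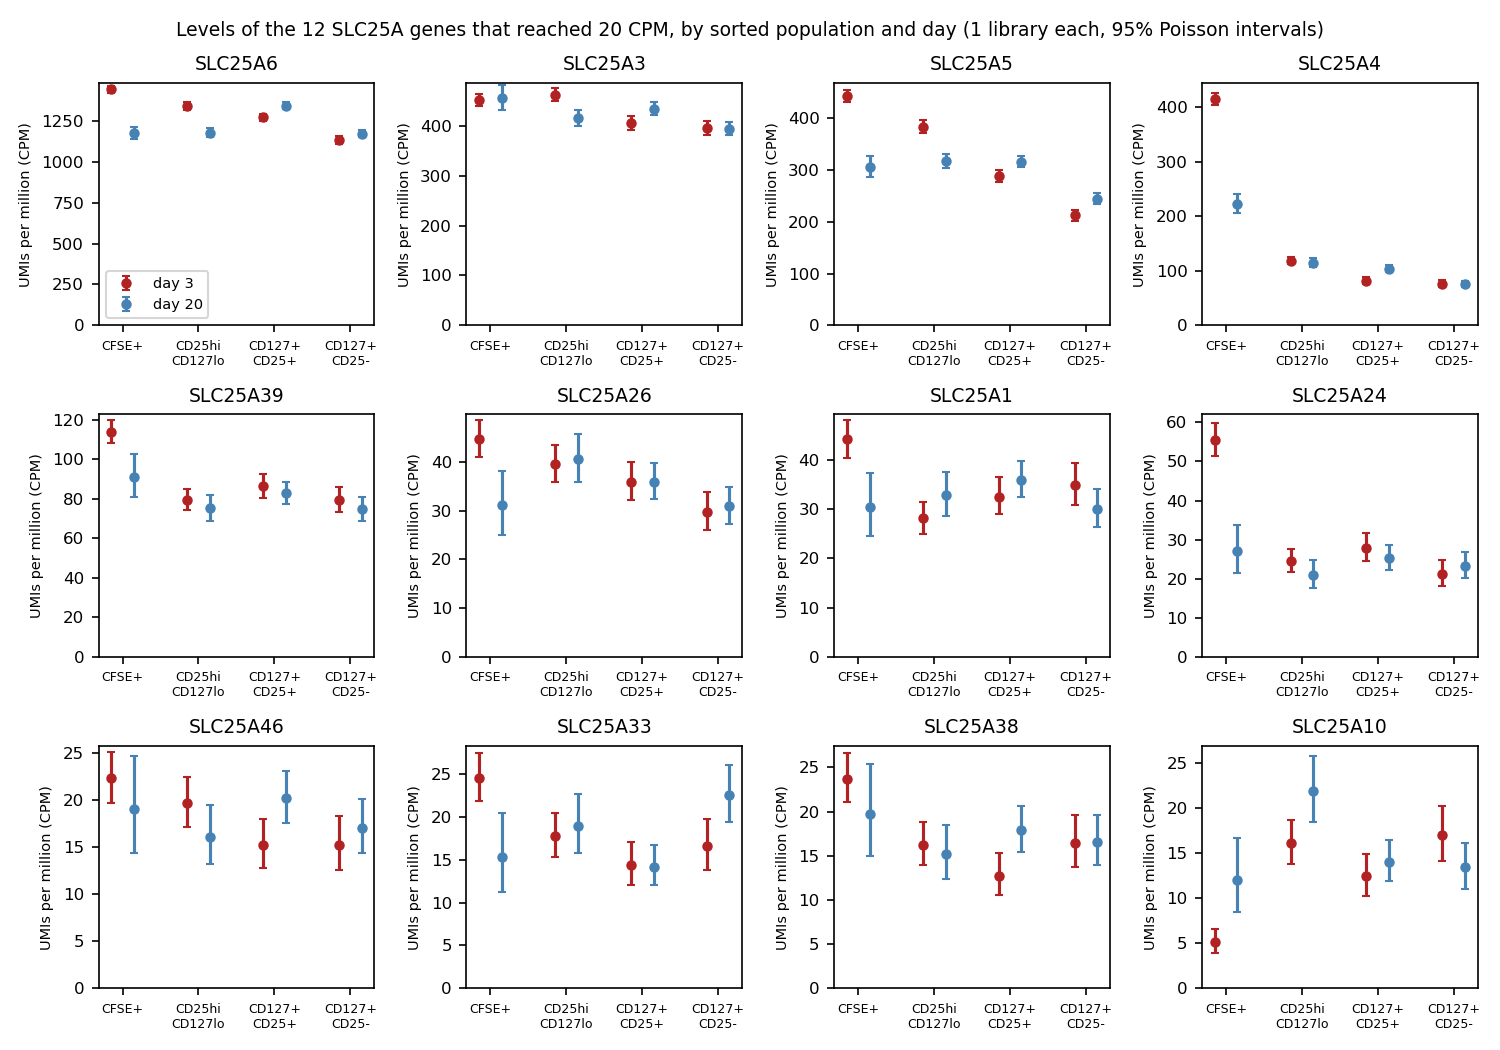
CPM (vertical axes, from 0) of the 12 carriers that reached 20 CPM in the 4 sorted populations, with day 3 in red and day 20 in blue; points are single libraries and bars are 95% Poisson intervals. SLC25A4 stands apart in the CFSE+ libraries at 415 and 223 CPM, SLC25A10 is lowest there on day 3 at 5.10 CPM, and SLC25A3 ranges from 394 to 462 CPM over all 8 libraries.

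Of the 12 carriers, 1 of the ADP/ATP carriers differed most between libraries. SLC25A4 (ENSMMUG00000015472), the isoform of heart and skeletal muscle also called ANT1, was at 415 CPM (404 to 427) in CFSE+ cells of day 3. On that day it stood at 118 CPM (112 to 125) in CD25hiCD127lo, 81.9 CPM (76.1 to 88.1) in CD127posCD25pos and 76.4 CPM (70.3 to 82.9) in CD127posCD25neg cells. Both CFSE+ libraries were above all 6 others. On day 20 SLC25A4 was at 223 CPM (207 to 241) in CFSE+, 114 CPM (106 to 123) in CD25hiCD127lo, 104 CPM (98.1 to 111) in CD127posCD25pos and 75.9 CPM (70.1 to 82.2) in CD127posCD25neg cells. The CPM ratio of CFSE+ to CD25hiCD127lo cells was 3.51 (3.30 to 3.73) on day 3 and 1.95 (1.75 to 2.17) on day 20, where the brackets give the exact conditional 95% interval of 2 counts. Against CD127posCD25neg cells the ratio was 5.44 (4.99 to 5.94) on day 3 and 2.94 (2.63 to 3.28) on day 20. Without cells that carried red cell, B cell, monocyte or platelet UMIs or very high totals, the log2 ratio to CD25hiCD127lo cells was 1.77 on day 3 and 0.92 on day 20, against 1.73 and 0.91 with all cells.

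The same shift shows in the make-up of the ADP/ATP carrier UMIs, which does not depend on the library total. SLC25A4 made up 18.0% (17.6 to 18.5) of the UMIs of SLC25A4, SLC25A5 and SLC25A6 in CFSE+ cells of day 3 (exact Clopper-Pearson interval). In the other 3 libraries of that day it made up 6.43% (6.09 to 6.78) in CD25hiCD127lo, 4.99% (4.65 to 5.36) in CD127posCD25pos and 5.37% (4.95 to 5.81) in CD127posCD25neg cells. On day 20 its share was 13.1% (12.2 to 14.0) in CFSE+ cells and 7.11% (6.63 to 7.62), 5.91% (5.57 to 6.26) and 5.09% (4.70 to 5.49) in the other populations, in the same order. The CFSE+ intervals overlapped no other library's on either day. SLC25A6 filled the smallest part of these UMIs in CFSE+ cells of day 3, at 62.7% (62.1 to 63.3), and the largest in CD127posCD25neg cells of that day, at 79.7% (78.9 to 80.5).

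**Figure D2:**
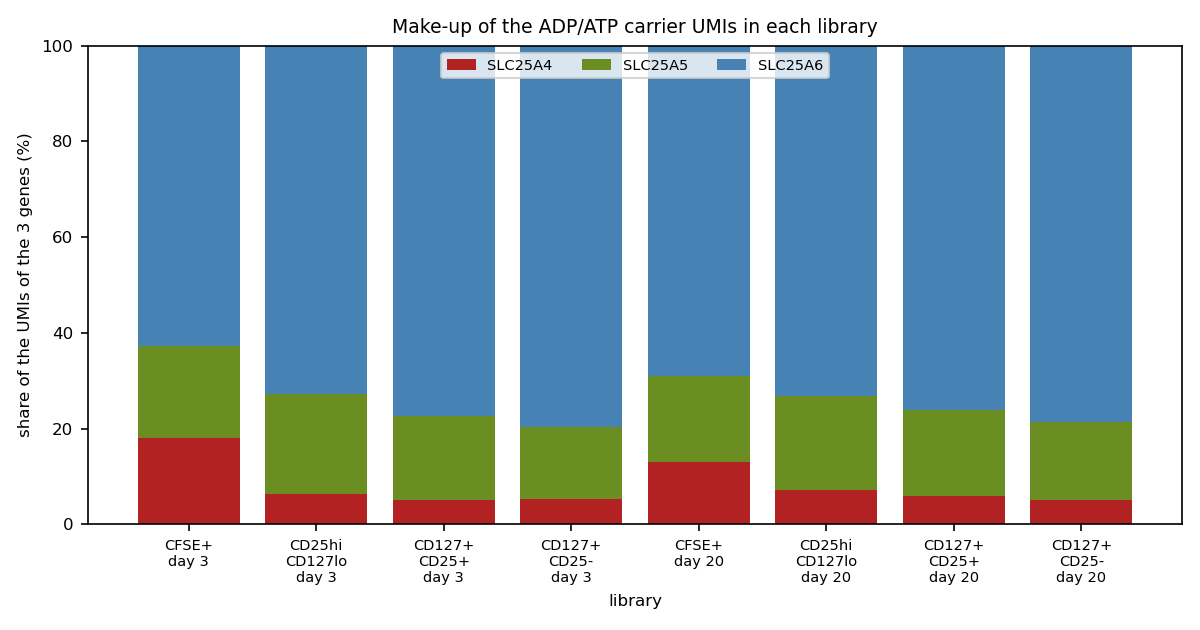
Share in % (vertical axis) of the summed UMIs of SLC25A4 (red), SLC25A5 (green) and SLC25A6 (blue) in each of the 8 libraries. The SLC25A4 share is 18.0% and 13.1% in the CFSE+ libraries and at most 7.11% in the others.

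SLC25A5 (ENSMMUG00000020282), the ADP/ATP carrier ANT2 of growing cells, followed another order. On day 3 it was at 443 CPM (432 to 455) in CFSE+, 384 CPM (372 to 396) in CD25hiCD127lo, 288 CPM (277 to 299) in CD127posCD25pos and 212 CPM (202 to 223) in CD127posCD25neg cells, with no overlap of intervals. On day 20 the first 3 populations lay close together at 306 CPM (287 to 327), 318 CPM (304 to 332) and 316 CPM (306 to 327), and CD127posCD25neg cells were lowest at 244 CPM (234 to 255). CFSE+ over CD25hiCD127lo gave a log2 ratio of 0.20 on day 3, below the all-gene median of 0.36, and one of -0.05 on day 20. SLC25A6 (ENSMMUG00000022663), the broadly expressed ANT3, ranged only from 1134 to 1443 CPM, and its ratios of CFSE+ to CD25hiCD127lo cells were 0.10 and -0.00 on the log2 scale. ADP/ATP carriers are close copies of one another, and counting of reads shared between copies is not described in the sources used here, so their separate levels carry that uncertainty.

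Carriers of phosphate and of other nucleotides differed less than SLC25A4. SLC25A3 (ENSMMUG00000023036), the phosphate carrier, ranged from 394 to 462 CPM, the narrowest relative range of the 12. SLC25A24 (ENSMMUG00000002789), a calcium-regulated carrier that exchanges ATP-magnesium for phosphate, was at 55.6 CPM (51.4 to 59.9) in CFSE+ cells of day 3. The same carrier stood at 24.6 CPM (21.7 to 27.7), 27.9 CPM (24.6 to 31.6) and 21.2 CPM (18.1 to 24.8) in CD25hiCD127lo, CD127posCD25pos and CD127posCD25neg cells of that day. On day 20 CFSE+ cells had 27.1 CPM (21.5 to 33.6), and the other populations 21.0 to 25.3 CPM, so that the intervals overlapped. Only the CFSE+ library of day 3 was set apart. SLC25A33 (ENSMMUG00000043999), a carrier of pyrimidine nucleotides, was at 24.5 CPM (21.8 to 27.5) in CFSE+ cells of day 3 and at 15.4 CPM (11.3 to 20.5) on day 20. In CD127posCD25neg cells it went the other way between days, from 16.6 CPM (13.8 to 19.7) to 22.6 CPM (19.5 to 26.1).

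Among carriers of metabolites, SLC25A10 (ENSMMUG00000004457), which exchanges dicarboxylates such as malate and succinate for phosphate, had its lowest level in transferred cells of day 3. It was at 5.10 CPM (3.91 to 6.54) in CFSE+ cells of day 3 against 16.1 CPM (13.8 to 18.7) in CD25hiCD127lo, 12.4 CPM (10.2 to 14.9) in CD127posCD25pos and 17.0 CPM (14.2 to 20.2) in CD127posCD25neg cells. These intervals do not meet that of the CFSE+ library. On day 20 the CFSE+ library had 12.0 CPM (8.42 to 16.7), CD25hiCD127lo cells 21.9 CPM (18.5 to 25.8), CD127posCD25pos cells 14.0 CPM (11.8 to 16.5) and CD127posCD25neg cells 13.4 CPM (11.0 to 16.2). The CFSE+ interval then overlapped those of the CD127posCD25pos and CD127posCD25neg libraries but not that of CD25hiCD127lo cells. The CPM ratio of CFSE+ to CD25hiCD127lo cells was 0.316 (0.233 to 0.425) on day 3 and 0.550 (0.370 to 0.797) on day 20. SLC25A10 was under 20 CPM in both libraries of day 3 and so did not pass the filter on low values there. SLC25A1 (ENSMMUG00000005431), the citrate carrier that supplies acetyl groups for lipid synthesis, was at 44.1 CPM (40.5 to 48.0) in CFSE+ and 28.1 CPM (25.0 to 31.4) in CD25hiCD127lo cells of day 3. On day 20 it was level between these 2 populations, at 30.4 CPM (24.5 to 37.3) and 32.8 CPM (28.6 to 37.5).

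The carriers of cofactors and of glycine completed the 12. SLC25A39 (ENSMMUG00000017944), which imports glutathione, was at 114 CPM (108 to 120.2) in CFSE+ cells of day 3 and at 79.3, 86.4 and 79.4 CPM in the CD25hiCD127lo, CD127posCD25pos and CD127posCD25neg libraries. Its day 20 levels were 91.2 CPM (80.7 to 103) in CFSE+ cells and 74.7 to 82.8 CPM in the others. SLC25A26 (ENSMMUG00000001529), the carrier of the methyl donor S-adenosylmethionine, ranged from 29.7 to 44.6 CPM. On day 20 it was at 31.1 CPM (25.1 to 38.1) in CFSE+ against 40.6 CPM (35.9 to 45.7) in CD25hiCD127lo cells, with overlapping intervals. SLC25A38 (ENSMMUG00000022963), which brings in the glycine for heme synthesis, ranged from 12.7 to 23.7 CPM, and SLC25A46 (ENSMMUG00000009624), an outer membrane member linked to mitochondrial fission, from 15.2 to 22.3 CPM. Their log2 ratios of CFSE+ to CD25hiCD127lo cells on day 3 were 0.36 and 0.12, at and below the all-gene median of 0.36.

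The 30 carriers that stayed under 20 CPM are measured by few UMIs. SLC25A17 (ENSMMUG00000008106), a peroxisomal carrier of cofactors, was at 16.7 CPM (14.5 to 19.2) in CFSE+ cells of day 3 against 6.50 to 9.55 CPM in the other libraries of that day. SLC25A12 (ENSMMUG00000007310), an aspartate-glutamate carrier of the malate-aspartate shuttle, was at 11.3 CPM (9.47 to 13.3) there against 5.38 to 5.92 CPM. The related SLC25A13 was at 9.79 CPM (8.11 to 11.7) in CFSE+ and 6.30 CPM (4.89 to 7.99) in CD25hiCD127lo cells. SLC25A25, another ATP-magnesium carrier, was at 7.69 CPM (4.87 to 11.5) in CFSE+ and 16.4 CPM (13.5 to 19.8) in CD25hiCD127lo cells of day 20, the reverse order. The intervals compared here did not overlap for any of these 4 carriers. The iron importers SLC25A28 and SLC25A37 (mitoferrins) ranged from 6.01 to 9.63 CPM and 4.01 to 8.36 CPM. SLC25A37 serves heme synthesis in red cell precursors and was at 7.14 CPM (5.63 to 8.92) in the CD25hiCD127lo library of day 3, which had the most red cell marker UMIs, and 5.78 CPM (4.09 to 7.93) in that of day 20. These intervals overlapped. Its highest level, 8.36 CPM, was in CD127posCD25neg cells of day 20, where red cell markers summed to 148 CPM, with HBA2 at 147 CPM. The part of red cell RNA in the SLC25A37 levels was not tested.

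SLC25A20 (the carnitine-acylcarnitine carrier of fatty acid oxidation), SLC25A30, SLC25A45, SLC25A22 (a glutamate carrier), SLC25A44 (a branched-chain amino acid carrier) and SLC25A14 peaked between 6.26 and 11.7 CPM. SLC25A51 (the NAD carrier), SLC25A40, SLC25A11 (the oxoglutarate carrier), SLC25A23, SLC25A32 (a folate carrier), SLC25A27, SLC25A42 (a coenzyme A carrier), SLC25A34, SLC25A16 and SLC25A29 peaked above 1 CPM and at no more than 3.37 CPM. SLC25A53, SLC25A35, SLC25A41 and SLC25A15 (an ornithine carrier) stayed under 1 CPM. SLC25A2, SLC25A18 and SLC25A47 had 2, 1 and 1 UMIs in all libraries together. A count of 0 in a library allows up to 0.247 CPM in CFSE+ cells of day 3 and about 1 CPM in those of day 20 (3 UMIs of the total, a one-sided limit). In all, 8 of the 30 low carriers had at least 1 pair of libraries with separate intervals, among them SLC25A44, which ranged from 1.99 to 6.58 CPM, and SLC25A45, from 5.24 to 11.4 CPM. For the other low carriers the intervals of every pair of libraries overlapped.

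Carriers past a 2-fold difference were counted as a family, beside the share of all genes. Here a gene counts as higher or lower where the ratio of CPM + 10 is at least 2-fold and 1 of the compared libraries has 20 CPM. A gene that reaches 20 CPM in only 1 of the compared libraries or classes can be called only as higher there. In CFSE+ over CD25hiCD127lo cells of day 3, 1 of 11 carriers that passed the filter was higher (SLC25A4), where 4.61% of all genes were, and 0 were lower, against 2.36%. On day 20 there were 0 higher and 0 lower of 9, against 0.531% and 1.69% of all genes. The carriers' median log2 ratio was 0.31 on day 3 beside an all-gene median of 0.36, and -0.00 on day 20 beside 0.04. In CFSE+ over CD127posCD25neg cells of day 3, SLC25A4, SLC25A5 and SLC25A24 were higher (3 of 11, against 9.97% of all genes) and 0 were lower, against 5.13%. SLC25A5 and SLC25A24 fell below 2-fold there with TMM factors, at 0.68 and 0.78. SLC25A4 alone was higher on day 20 (1 of 9, against 1.67%), with 0 lower against 1.80%. It was the only carrier at least 2-fold higher on both days, of 9 that passed on both days, where 1.59% of all genes were.

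Between the populations that were not transferred, no carrier passed. CD25hiCD127lo over CD127posCD25neg gave 0 higher of 8 on day 3 and 0 of 10 on day 20, against 1.12% and 1.08% of all genes. Lower were 0 and 0, against 1.34% and 0.529%. SLC25A5 came nearest, with a log2 ratio of 0.82 on day 3, and 0.37 on day 20, while SLC25A4 had 0.57 and 0.53. The all-gene medians were 0.07 and 0.04. With only endoTreg cells of the first sort and Tconv cells of the second, SLC25A5 was past 2-fold on day 3, at 1.20. CD127posCD25pos over CD127posCD25neg gave 0 higher of 8 on day 3 and 0 of 10 on day 20, against 0.0848% and 0.215%. None was lower either, where 0.650% and 0.563% of all genes were. SLC25A5 again had 0.42 and 0.36. The comparisons with CD127posCD25neg cells share those libraries and are not independent of one another.

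**Figure D3:**
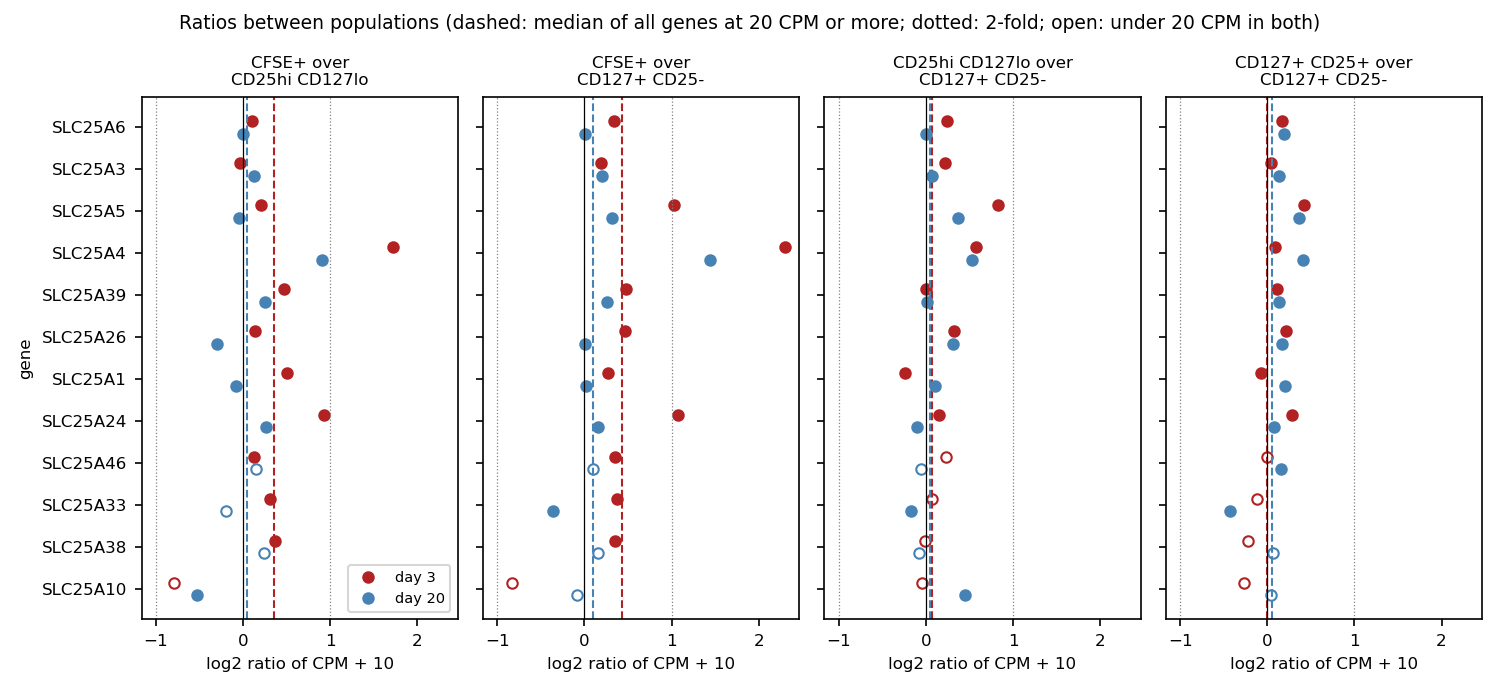
Log2 ratios of CPM + 10 (horizontal axes) of the 12 carriers in 4 comparisons between populations, with day 3 in red and day 20 in blue; dashed lines are the median of all genes at 20 CPM or more, dotted lines mark 2-fold, and open points did not reach 20 CPM in either library. SLC25A4 lies right of both dashed lines when CFSE+ cells are compared, at 1.73 and 0.91 over CD25hiCD127lo cells and 2.30 and 1.44 over CD127posCD25neg cells.

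From day 3 to day 20 no carrier changed 2-fold in any population. In CFSE+ cells 0 of 11 were lower and 0 higher, where 2.12% and 2.57% of all genes were. The lowest log2 ratios of day 20 over day 3 in CFSE+ cells were -0.87 for SLC25A4, -0.82 for SLC25A24 and -0.52 for SLC25A5, beside an all-gene median of -0.26. SLC25A3 stood at 0.01. In CD25hiCD127lo cells the ratios of these 4 carriers were -0.05, -0.16, -0.26 and -0.15, with an all-gene median of 0.03. In each of the 3 populations sorted without the dye, 0 of 9 carriers passed in either direction. The shares of all genes higher were 1.53% in CD25hiCD127lo, 0.0273% in CD127posCD25pos and 0.0552% in CD127posCD25neg cells. The shares lower were 0.188%, 0.109% and 0.0552% in that order. The CFSE+ libraries differed in make-up by the authors' finer classes. That of day 3 held 1124 cells named effector, 2687 in transition and 123 naive, and that of day 20 held 985 naive. In the naive class, SLC25A4 was at 293 CPM (236 to 360) on day 3 and 224 (206 to 243) on day 20. SLC25A24 was at 25.8 CPM (11.1 to 50.7) and 25.2 (19.4 to 32.1), and SLC25A5 at 386 (320 to 462) and 307 (286 to 329). The part of make-up was not tested.

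A level in a whole sort cannot tell fewer cells of a type from less RNA per cell, so the carriers were also summed within the authors' deposited classes, which were drawn from these cells' own expression and are described with no test. SLC25A4 was at 418 CPM (407 to 430.2) in transTreg cells of the CFSE+ library and 137 CPM (126 to 148) in endoTreg cells of the CD25hiCD127lo library on day 3. On day 20 the same classes had 230.2 CPM (213 to 249) and 145 CPM (131 to 160.0). The CPM ratio was 3.05 (2.80 to 3.33) on day 3 and 1.59 (1.40 to 1.81) on day 20. SLC25A4 was the 1 of 11 carriers at least 2-fold higher on day 3, where 3.23% of all genes were, and 0 were lower, against 2.51%. On day 20 0 of 9 were higher and 0 lower, against 0.643% and 2.20%. SLC25A5 was lower in the transferred class as a whole. Its level in transTreg cells was 445 CPM (433 to 457) on day 3 and 305 CPM (285 to 327) on day 20, and in endoTreg cells it was 492 CPM (472 to 513) and then 424 CPM (399.6 to 449). These classes differ in make-up. In the authors' finer classes, the CFSE+ library of day 20 held 985 cells named naive. The CD25hiCD127lo library held 444 endogenous cells named effector and 412 named naive. Between the naive classes SLC25A5 was higher in transferred cells, at 307 against 198 CPM. The part of make-up was not tested. The 51 CFSE+ cells of day 3 that the authors placed in Tconv had SLC25A4 at 230.4 CPM (157 to 327).

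Within each CD25hiCD127lo library SLC25A5 was lower in the cells classed as Tconv, at 308 CPM (295 to 322) on day 3 and 245 CPM (229 to 261) on day 20, than in the endoTreg cells just given. The log2 ratios were 0.66 and 0.77, beside all-gene medians of 0.13 and 0.11. No carrier passed 2-fold here: 0 of 9 were higher on day 3 and 0 of 10 on day 20 (all genes 1.49% and 1.22%), and none was lower (all genes 0.541% and 0.612%). In the CD127posCD25pos sort the 272 endoTreg cells of day 3 had SLC25A5 at 468 CPM (424 to 515) and the Tconv cells at 268 CPM (257 to 279). The 293 endoTreg cells of day 20 had 632 CPM (574 to 695), and Tconv cells 294 CPM (283 to 305). SLC25A5 was the 1 of 10 carriers at least 2-fold higher there on day 20 (all genes 4.24%, and 0.958% lower). On day 3 0 of 10 were higher and 0 lower (all genes 1.96% and 0.476%). The day 20 call depends on scaling, since with TMM factors the log2 ratio was 0.69, under 2-fold. SLC25A6 had log2 ratios of 0.00 and 0.06 within CD25hiCD127lo cells. Proliferation genes were higher beside SLC25A5 in endoTreg cells of the CD127posCD25pos sort, 4 of 5 measured on day 3 and 6 of 8 on day 20, MKI67 among the latter. Within CD25hiCD127lo cells 1 of 3 were higher on day 3 and 0 of 3 on day 20. Their part in the SLC25A5 difference was not tested. Any proliferation gene at 20 CPM in the endoTreg class only could be called in no other direction than higher.

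The finer classes separate the ADP/ATP carriers further. In CD25hiCD127lo cells of day 3, SLC25A5 was at 793 CPM (750.4 to 837) in 461 cells called endo_Effector_Tregs and 297 CPM (277 to 319) in 798 called endo_Naive_Tregs. On day 20 these classes had 641 CPM (598 to 685) in 444 and 198 CPM (173 to 225) in 412 cells. The CPM ratios were 2.67 (2.44 to 2.92) and 3.24 (2.80 to 3.77). SLC25A5 was the 1 of 12 carriers past 2-fold on day 3 and the 1 of 9 on day 20, where 11.2% and 10.8% of all genes were. None was lower, against 1.01% and 0.691% of all genes. Median UMIs per cell in the effector and naive classes were 3363 and 3196 on day 3, and 2457.5 and 2712.5 on day 20. Of proliferation genes, 5 of 7 measured were at least 2-fold higher in the effector class on day 3 and 4 of 5 on day 20, with median log2 ratios of 1.31 and 1.43. MKI67, PCNA, STMN1 and CENPF were among them on both days, and their part in the SLC25A5 difference was not tested. Any proliferation gene at 20 CPM in the effector class only could be called in no other direction than higher. All-gene medians were high, at 0.43 and 0.37, and with TMM factors the log2 ratio of SLC25A5 was 0.87 on day 3, under 2-fold, and 1.26 on day 20. SLC25A4 in the effector class was at 186 CPM (166 to 208) on day 3 and 189.6 CPM (167 to 214) on day 20. In the naive class it was at 105 CPM (92.6 to 118) and 90.9 CPM (74.3 to 110.1), which left it under 2-fold (0.78 and 0.98 on the log2 scale).

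Among the transferred classes of day 3, SLC25A5 levels lay closer together than SLC25A4 levels. SLC25A5 was at 428 CPM (406 to 450.4) in 1124 transferred_Effector_Tregs and 455 CPM (440.0 to 469.8) in 2687 transferred_inTransition cells. In the 123 transferred_Naive_Tregs it was at 386 CPM (320.3 to 462). SLC25A4 was ordered instead, at 491 CPM (468 to 516) in the effector, 404 CPM (391 to 419) in the transition and 293 CPM (236 to 359.7) in the naive class of that library, with no overlap of intervals. The 115 cells called Unk1 had 132 CPM (94.0 to 179) and the 61 called Unk2 343 CPM (265 to 437). On day 20 the 985 transferred_Naive_Tregs had 224 CPM (206 to 243) and the 57 transition cells 319 CPM (234 to 424). No carrier passed 2-fold between the effector and transition classes (0 of 11 higher, all genes 0.116%, and 0 lower, all genes 0.0233%).

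Matched by the authors' names, transferred_Effector_Tregs over endo_Effector_Tregs of day 3 gave an SLC25A4 ratio of 2.63 (2.33 to 2.98), and transferred_Naive_Tregs over endo_Naive_Tregs of day 20 gave 2.46 (1.99 to 3.06). SLC25A5 was lower in the transferred effector class, with a ratio of 0.539 (0.500 to 0.582), and higher in the transferred naive class, with 1.55 (1.34 to 1.81). SLC25A10 was at 7.27 CPM (4.66 to 10.8) in transferred and 29.5 CPM (21.8 to 39.0) in endogenous effector cells, a ratio of 0.247 (0.145 to 0.410), though with a pseudocount of 30 CPM its log2 ratio of -1.19 became -0.67. In this effector comparison 1 of 14 carriers was at least 2-fold higher (SLC25A4) and 1 lower (SLC25A10), where 3.45% and 3.89% of all genes were. SLC25A10 passed the filter through the endogenous class only, so it could be called in no other direction than lower. Of 7 proliferation genes measured, 4 were lower in the transferred effector class (MKI67, STMN1, CENPF and UBE2C), and their part in the carrier differences was not tested. Any of them at 20 CPM in the endogenous class only could be called in no other direction than lower. In the naive comparison 1 of 9 was higher (SLC25A4), against 2.63%, and 0 lower, against 1.38%. The 64 cells of the CD25hiCD127lo library of day 20 that carried the name transferred_Naive_Tregs had SLC25A4 at 149 CPM (92.3 to 228), between the CFSE+ cells of that name and the endo_Naive_Tregs of their own library, with intervals that overlap both.

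**Figure D4:**
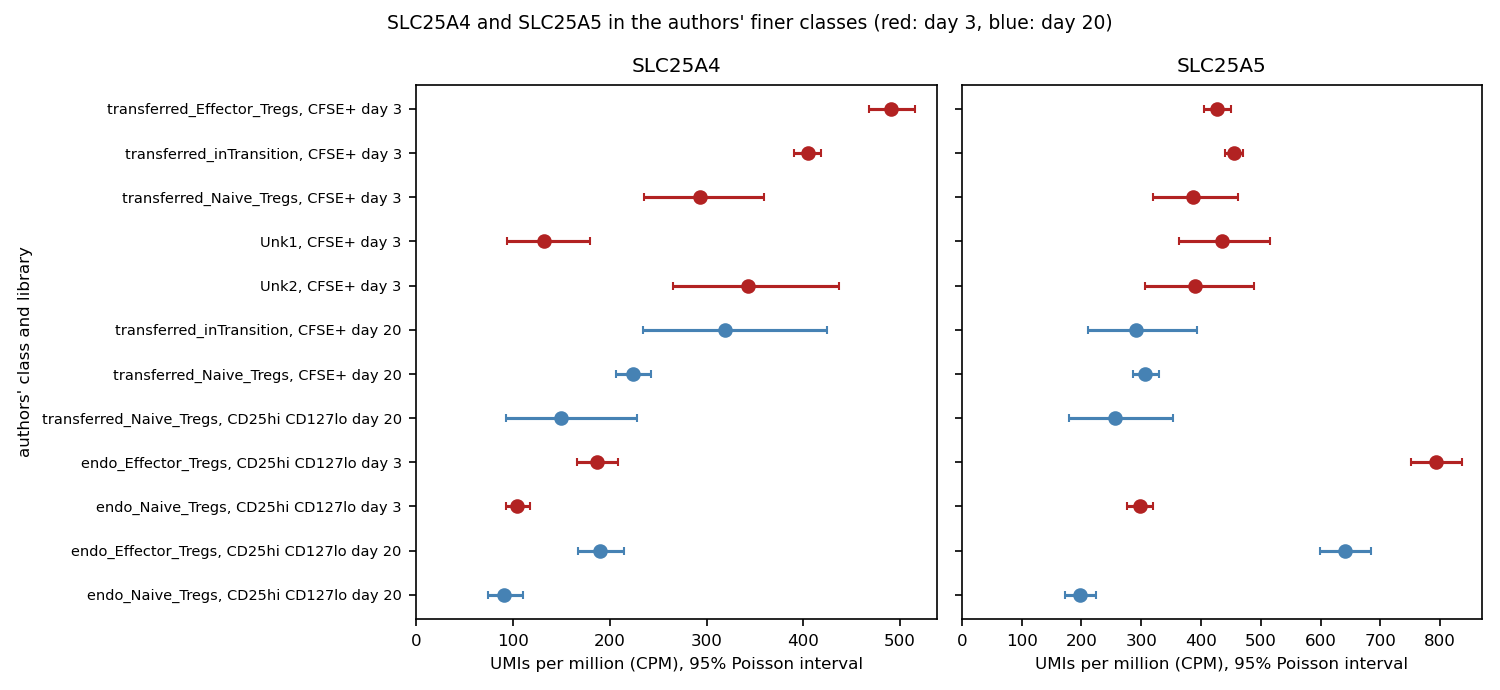
CPM (horizontal axes, from 0, with 95% Poisson intervals) of SLC25A4 on the left and SLC25A5 on the right in each of the authors' finer classes with at least 50 cells in a library; red is day 3 and blue is day 20. SLC25A4 is highest in transferred_Effector_Tregs of day 3, at 491 CPM, while SLC25A5 is highest in endo_Effector_Tregs, at 793 and 641 CPM.

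By cluster number, the effector pattern of SLC25A5 followed cluster 3 across sorts. Cluster 3 had SLC25A5 at 743 CPM (706 to 782) in CD25hiCD127lo and 668 CPM (596 to 745) in CD127posCD25pos cells of day 3, and at 589 CPM (551 to 628) and 713 CPM (645 to 785) on day 20. Cluster 4, the other endoTreg cluster, had 281 CPM (261 to 303) and 239 CPM (195 to 291) on day 3. Of the Tconv clusters, only cluster 5 and cluster 6 are compared here, a pair chosen after the values were seen. In CD127posCD25neg cells cluster 5 had SLC25A4 at 174 CPM (149 to 202) on day 3 and 157 CPM (133 to 183) on day 20. Cluster 6 of the same libraries had 49.0 CPM (41.5 to 57.5) and 54.8 CPM (46.9 to 63.7). All Tconv cells of these libraries had 75.7 CPM (69.5 to 82.2) and 75.5 CPM (69.6 to 81.8), so cluster 6 was on the low side. Cluster 5 cells were shallower, with a median of 1618 UMIs against 2574 in cluster 6 on day 3, and the part of depth in the SLC25A4 difference was not tested.

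Cluster 5 held further carriers past 2-fold, in a number near the share of all genes. SLC25A24 was at 48.8 CPM (36.0 to 64.7) there and 7.14 CPM (4.48 to 10.8) in cluster 6 on day 3, and at 34.6 CPM (23.9 to 48.3) and 16.1 CPM (12.0 to 21.3) on day 20. SLC25A46 had 33.5 CPM (23.1 to 47.1) in cluster 5 and 9.09 CPM (6.04 to 13.1) in cluster 6 of day 3. SLC25A1 had 50.8 CPM (37.7 to 67.0) and 20.3 CPM (15.6 to 26.0) in those of day 20. Past 2-fold were 3 of 13 carriers on day 3 (SLC25A4, SLC25A24 and SLC25A46) and 2 of 11 on day 20 (SLC25A4 and SLC25A1), where 18.3% and 17.8% of all genes were. On day 3 SLC25A24 and SLC25A46 passed the filter through cluster 5 only, so they could be called in no other direction than higher. None was lower, against 2.01% and 2.57%. With TMM factors the SLC25A4 ratio was 1.13 on day 3 and 0.85 on day 20, the latter under 2-fold, and those of SLC25A46 on day 3 and SLC25A1 on day 20 were 0.84 and 0.57, both under 2-fold. SLC25A3, SLC25A5 and SLC25A6 had log2 ratios of -0.00, 0.39 and -0.06 on day 3, all below the all-gene median of 0.51.

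The partners of the carriers were taken as lists. Of carrier-fold proteins under other names, UCP2 and MTCH1 were at least 2-fold higher in CFSE+ than CD25hiCD127lo cells of day 3 (2 of 3 that passed the filter, of 5 listed, beside 4.61% of all genes). UCP2, named as an uncoupling protein, was at 1473 CPM (1452 to 1495) in CFSE+, 619 CPM (604 to 634) in CD25hiCD127lo, 441 CPM (427 to 455) in CD127posCD25pos and 393 CPM (379 to 408) in CD127posCD25neg cells of day 3. On day 20 its levels were 721, 548, 423 and 384 CPM in that order. MTCH1, an outer membrane protein that inserts other proteins, was at 148 CPM (141 to 155) in CFSE+ and 59.5 CPM (55.0 to 64.3) in CD25hiCD127lo cells of day 3, and 98.9 CPM (88.0 to 111) and 61.7 CPM (55.8 to 68.0) on day 20. Both had their highest level in the CFSE+ library of day 3, as SLC25A4 did.

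The other lists were counted in the same way in CFSE+ over CD25hiCD127lo cells of day 3, where 4.61% of all genes were higher and 2.36% lower. Of the import path that inserts carriers into the inner membrane, 0 of 5 measured genes were higher, with a median log2 ratio of 0.19 beside the all-gene 0.36. Of ATP synthase genes 1 of 9 was higher, with a median of 0.35. It was ATP5I, a subunit of the membrane part, at 491 CPM (479 to 504) in CFSE+ and 238 CPM (229 to 247) in CD25hiCD127lo cells. Enzymes of the malate-aspartate and citrate shuttles had 0 of 8 higher and a median of 0.53, and iron, heme and iron-sulfur genes 0 of 6 and 0.53. Other transporters had 0 of 2 and folate enzymes 0 of 1. Among adenylate and creatine kinases and relatives, NME4, a mitochondrial nucleoside diphosphate kinase, was lower (1 of 2 measured, of 7 listed), at 8.64 CPM (7.07 to 10.5) in CFSE+ against 28.5 CPM (25.4 to 31.8) in CD25hiCD127lo cells of day 3. NME4 passed the filter through the CD25hiCD127lo library only, so it could be called in no other direction than lower. Of the proliferation list, 3 of 14 genes found passed the filter and PCNA was higher, at 96.2 CPM (90.8 to 102) against 42.3 CPM (38.5 to 46.3). MKI67, which marks dividing cells, was similar at 8.56 CPM (6.99 to 10.4) and 8.16 CPM (6.54 to 10.0). On day 20 no gene of these 9 lists passed 2-fold in this comparison, in either direction.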

How the data were processed

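The table deposited by the authors holds a whole UMI count for every gene in every cell of the droplet libraries (10x, 3′ version 2, per the labels). Per the submitters' processing notes, Cell Ranger 2.1.1 was used; build, annotation and cell filters are not stated there, in the labels or in the file headers (not given in the sources used here). Total counts given by the authors equal the column sums for 25397 of 25397 cells. Cells were mapped to libraries by the deposited library names. Each UMI stands for 1 molecule tagged at its 3′ end, so levels were not scaled by gene length.

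All cells were kept and no doublet caller was run. Counts were summed per library, class (3), finer class (7) or cluster (10) of at least 50 cells, and divided by the total. Ratios are log2 ratios of CPM + 10, which understates changes of low genes, for genes at 20 CPM in a compared group. With 1 library per population and day no test was run; the calculations were tested on simulated data (Python 3.11.15, scipy 1.17.1). No sequences were used.

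Carriers at 20 CPM in a library are named with their values, and the others by level, except 1 low carrier that is not reported here; of the low ones, examples with separate intervals were chosen after their values were seen, as were the cluster 5 and 6 comparison and examples within lists. Members and lists were chosen with earlier results of these data known. Alternatives were TMM (edgeR 4.0.16) and median-of-ratios (DESeq2 1.42.0) factors, used for scaling only, named-gene totals without ribosomal, mitochondrial and hemoglobin genes, pseudocounts of 1 and 30 CPM, a 50 CPM filter or none, averaging CPM over cells, removal of 1473 doublet-like cells (3 or more UMIs of platelet, monocyte, red cell or B cell markers, or a total above 2 times the library's median), matching classes, and thinning to 2992787 UMIs. For the classes, and for counts on single days, these were added after the data were seen. No gamma delta T marker was found; NK, CD8 T, dendritic, monocyte and platelet markers summed to at most 93.8, 3.68, 13.4, 21.8 and 1.11 CPM in any library.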

Additional observations from a re-analysis of the deposited data

Results flagged for a closer look

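For 3 carriers the change between days had opposite directions in different populations, each with an interval that excludes 1. With 1 library per population and day the difference between populations was not tested. SLC25A4 had a CPM ratio of day 20 over day 3 of 0.538 (0.495 to 0.583) in CFSE+ and 1.27 (1.16 to 1.40) in CD127posCD25pos cells. SLC25A5 had 0.691 (0.644 to 0.741) in CFSE+ and 0.828 (0.785 to 0.873) in CD25hiCD127lo cells, against 1.10 (1.04 to 1.16) in CD127posCD25pos and 1.15 (1.08 to 1.23) in CD127posCD25neg cells. SLC25A33 had 0.627 (0.449 to 0.857) in CFSE+ and 1.36 (1.08 to 1.73) in CD127posCD25neg cells. The all-gene median of log2 ratios was -0.26 in CFSE+, 0.13 in CD127posCD25pos and 0.07 in CD127posCD25neg cells, and SLC25A5 in CD127posCD25pos cells, at 0.13, equalled that median to 2 decimals. The intervals cover counting error only. The CFSE+ library held mostly other finer classes on day 20 than on day 3, and the part of that in its changes was not tested.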

How the results depend on the processing

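Counts of carriers past 2-fold were recomputed under each alternative. For the 16 counts on both days or between days, 175 of 176 alternative counts stayed within 1.5 times the main count. The exception was the count lower on day 20 than day 3 in CFSE+ cells, which went from 0 to 1 (SLC25A24) with a pseudocount of 1 CPM. Apart from the 1 carrier higher in CFSE+ over CD127posCD25neg cells on both days, these 16 main counts were 0. A count of 0 was kept only where it stayed 0, so the 175 are mostly zeros that stayed zeros. For the 42 counts on single days and between classes, recomputed after the data were seen, 378 of 410 stayed within 1.5 times the main count. TMM, size-factor and named-gene scaling each took CFSE+ over CD127posCD25neg on day 3 from 3 to 1 higher, endo effector over naive on day 3 and endoTreg over Tconv in CD127posCD25pos cells on day 20 from 1 to 0, and cluster 5 over 6 on day 20 from 2 to 0. TMM and size factors took the count lower in transferred than endo effector cells from 1 to 2 (SLC25A5 joined), and TMM that in transTreg than endoTreg cells of day 3 from 0 to 1 (SLC25A10). A pseudocount of 1 CPM gave 2 higher in CFSE+ over CD25hiCD127lo on day 3 (SLC25A24 joined, also when thinned, again 2), 1 in endoTreg over Tconv of CD127posCD25pos cells on day 3 (SLC25A20), 5 and 3 in endo effector over naive on day 3 and day 20, and 5 and 4 in cluster 5 over 6. A pseudocount of 30 CPM left 1 higher in CFSE+ over CD127posCD25neg on day 3 and 1 in cluster 5 over 6 on day 20, and 0 lower in transferred than endo effector cells. A 50 CPM filter left 1 in cluster 5 over 6 on day 3 and 0 lower in transferred than endo effector cells. Averaging CPM over cells gave 0 in endoTreg over Tconv of CD127posCD25pos cells, 2 in endo effector over naive and 1 in cluster 5 over 6, all on day 20. Without doublet-like cells endo effector over naive on day 20 had 2, and with matching classes CD25hiCD127lo over CD127posCD25neg on day 3 had 1 (SLC25A5). The cause of these changes was not tested. No called ratio of a named carrier changed sign under any alternative, and 130 of 163 alternative values kept the call. SLC25A4 kept it under all 11 alternatives over CD25hiCD127lo on day 3 (log2 1.40 to 1.80) and over CD127posCD25neg on day 3 (1.86 to 2.43) and day 20 (1.26 to 1.54). TMM factors moved the all-gene median of CFSE+ over CD25hiCD127lo on day 3 by -0.27 and that over CD127posCD25neg by -0.29. SLC25A5 and SLC25A24 in the latter comparison were under 2-fold with all 3 other scalings and a pseudocount of 30 CPM (SLC25A5 0.58 at the lowest, SLC25A24 0.70), and SLC25A5 also when thinned. The labels give no replicate numbers, and a fit of populations with day as a block, which would treat the days as replicates, was not run. No library was left out, since each is the only one of its population and day. Depth limits the 30 carriers under 20 CPM most.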

Other observations

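An identifier with no symbol in the deposited file, ENSMMUG00000022153, is named SLC25A36 in the reference table and was therefore no member. This pyrimidine nucleotide carrier was at 7.90 CPM (6.40 to 9.65) in CFSE+ and 7.14 CPM (5.63 to 8.92) in CD25hiCD127lo cells of day 3, and its level ranged from 7.14 to 10.3 CPM over the 8 libraries. The intervals of CFSE+ and CD25hiCD127lo cells overlapped on both days.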
